A study of Mus musculus with 16 samples.

Results

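Genes of DNA replication, the cell cycle and mitosis were followed in 3 macrophage populations sorted from mouse hearts and in 1 monocyte population from blood. The 46 genes were a list of names, not picked by a threshold on these values, and were found by gene symbol among the 30430 genes and unnamed features of the array. The list was chosen with earlier results of these data known, so it is not independent of them. Every member had a probe, 64 probes in all. For 40 members a probe passed the filter on dim signal and was tested, and the other 6 members are described by their levels only.

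All animals were untreated C57BL/6 mice, and their age is not given in the labels. Hearts were minced and digested, dead cells that took up DAPI were left out, and each macrophage gate required CD45, MerTK and CD64 and no Ly6c. CCR2+ Mac cells had high CCR2 and high MHCII. MHC-IIHi Mac cells lacked CCR2, had high MHCII and low CD11c, and MHC-IIlo Mac cells lacked CCR2 and CD11c and had low MHCII. Ly6cHi Mono cells were monocytes of the blood and served as the comparison population. Each population was measured on 4 arrays. The labels do not say whether the 4 came from separate mice, so the p-values here measure the spread between these samples, which may be technical.

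A dividing cell switches on these genes in waves. The MCM helicase, the sliding clamp and the enzymes that make deoxynucleotides serve DNA synthesis. Cyclin B, its kinase Cdk1 and the Aurora and Polo kinases then drive mitosis, the kinetochore and the passenger complex attach and sort the chromosomes, motors shape the spindle, condensin packs the DNA, and the anaphase-promoting complex ends the phase by destroying cyclins. In resting cells a repressor complex that binds promoters through the cell cycle homology region, together with E2F proteins, keeps the late genes silent. Blood monocytes are mostly non-dividing cells that leave the marrow after their last divisions, while resident heart macrophages can renew themselves by slow local division and the CCR2+ population is known to be refilled from monocytes.

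A level below is log2 of the processed signal after subtraction of the array's 75th percentile, so that 0 is a spot at that percentile, and the 4 values of a population are given in the order of slides 1 to 4. Each slide held 1 array of every population. The 16 arrays had 52.8% to 69.3% of spots well above background, and arrays of one population correlated at 0.916 to 0.981. A difference was called at an adjusted p under 0.05, from limma with Benjamini-Hochberg adjustment over 22095 genes and features within each comparison, and ± is the standard error of the fit. Where a population had a probe well above background on none of its 4 arrays, a lower bound of the fold is given, set against the dimmest spots that still counted as measured. The p beside such a bound belongs to the measured difference, and the bound itself was not tested. The bound applies to the signal as deposited, and normexp, another background correction, took some differences below it. For the macrophage mean against monocytes, Mcm5 (log2 difference 0.54), Rrm1 (0.12), Prc1 (1.28) and Smc2 (0.72) were among them. The gates were visible in the data: Ccr2 lay between 0.37 and 0.81 in CCR2+ macrophages and between -4.81 and -2.91 in the other 2 macrophage populations, and no monocyte array had Mertk well above background.

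The promoters of these genes are shown first because the best known shared feature of late cell cycle genes is written in them. In the RefSeq promoter table (GRCm38.p6, 250 bases before to 50 after each start) 40 of the members had 42 promoters. The hexamer TTTGAA, the core of the cell cycle homology region, was found on either strand in 24 of the 42 (57.1%) and in 17.9% of all 32851 promoters of the table. CCAAT, the box read by NF-Y, was found in 34 of the 42 (81%) and in 37.4% of all promoters. The hexamer variant TTCGAA was found in 4 (9.52%, against 1.56%), and the E2F octamer GGCGGGAA in 2 (4.76%, against 2.19%). Below are the 150 bases before the start, 5′ to 3′ on the gene's strand, of the 3 members called between macrophage populations (Cdca3, Kif22, Smc2), of Ube2c, which had the smallest adjusted p against monocytes, and of Birc5, in whose window none of the 4 motifs was found. Capitals mark TTTGAA or, where it lies on the other strand, its reverse complement TTCAAA. They also mark the CCAAT box or, on the other strand, ATTGG, and the last capitals of Cdca3 begin a CCAAT that runs past the printed end.
Cdca3 (chr6:124830026-124830175, + strand): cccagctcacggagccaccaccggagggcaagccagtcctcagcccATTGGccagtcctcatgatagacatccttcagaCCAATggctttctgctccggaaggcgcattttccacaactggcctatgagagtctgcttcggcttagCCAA
Kif22 (chr7:127042421-127042570, - strand): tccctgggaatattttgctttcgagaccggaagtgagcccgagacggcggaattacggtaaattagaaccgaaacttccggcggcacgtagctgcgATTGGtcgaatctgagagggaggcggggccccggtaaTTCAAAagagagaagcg
Smc2 (chr4:52439071-52439220, + strand): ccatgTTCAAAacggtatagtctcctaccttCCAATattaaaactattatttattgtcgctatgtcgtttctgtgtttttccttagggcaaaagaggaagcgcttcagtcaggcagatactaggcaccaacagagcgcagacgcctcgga
Ube2c (chr2:164769779-164769928, + strand): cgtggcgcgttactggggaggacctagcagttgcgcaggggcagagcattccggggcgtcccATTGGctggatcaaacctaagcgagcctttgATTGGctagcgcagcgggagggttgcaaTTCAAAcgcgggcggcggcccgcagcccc
Birc5 (chr11:117849087-117849236, + strand): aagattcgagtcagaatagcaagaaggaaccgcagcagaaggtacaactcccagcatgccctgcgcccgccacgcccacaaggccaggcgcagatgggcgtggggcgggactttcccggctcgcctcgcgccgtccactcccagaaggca

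Kif22 and Ube2c carried the arrangement described for late mitotic genes, with a CCAAT box upstream of a TTTGAA close to the start. Cdca3 carried CCAAT boxes without TTTGAA in the printed stretch, but had TTTGAA past the start, within the window searched. In Smc2 the printed TTTGAA lay upstream of the CCAAT box, and another lay past the start. TTTGAA was in the promoters of 12 of 23 members called higher in macrophages and in those of 9 of 14 tested members that were not called. For CCAAT the counts were 19 of 23 and 10 of 14. A match is a description of these letters and was not tested for binding.

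**Figure D1:**
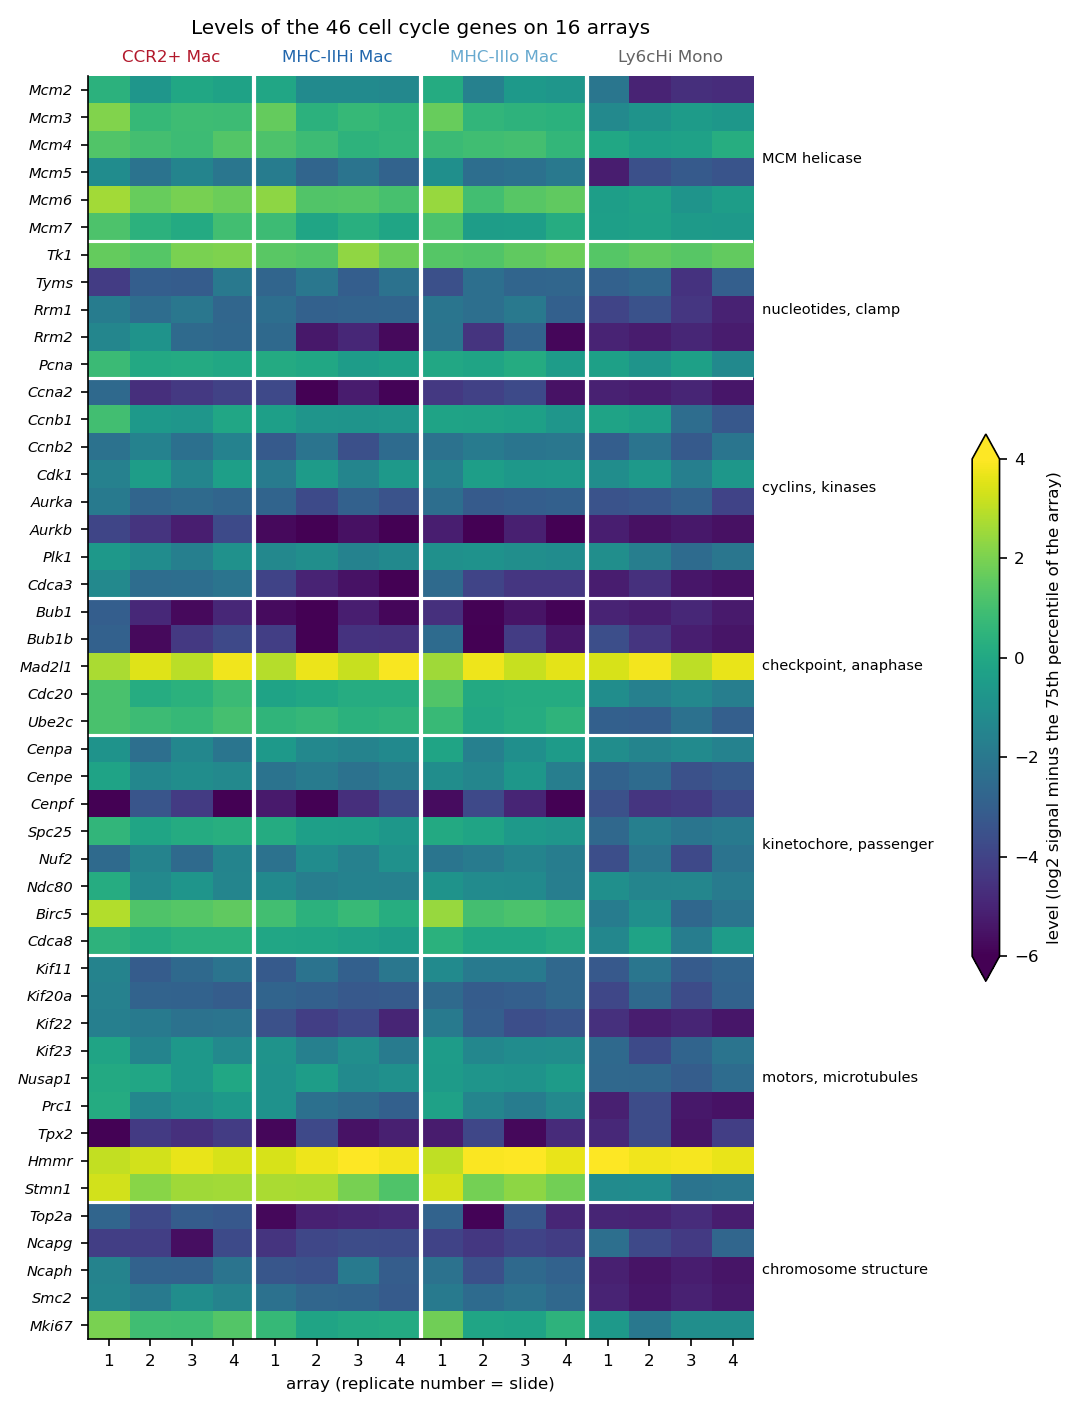
Level (log2 of processed signal minus the array's 75th percentile, colour) of the 46 members, in 7 groups by role, on the 16 arrays ordered by population and slide. Most members are lowest in the 4 Ly6cHi Mono columns, Hmmr and the probe used for Mad2l1 are bright in every column, and the 6 untested members are dim throughout.

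Across the list, levels were highest in CCR2+ macrophages and lowest in monocytes. The mean was highest in CCR2+ macrophages for 31 of the 40 tested members and lowest in monocytes for 32. Among the 3 macrophage populations MHC-IIHi was lowest for 29. The median level over the 40 members was between -1.0 and -0.05 on the CCR2+ arrays, between -1.49 and -0.89 on the MHC-IIHi arrays, between -1.27 and -0.48 on the MHC-IIlo arrays and between -2.71 and -2.07 on the monocyte arrays. Every monocyte array thus had a lower median than every macrophage array, while the 3 macrophage populations overlapped. In bulk samples, a larger share of dividing cells and more of these RNAs per cell cannot be told apart.

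Against monocytes, the mean of the 3 macrophage populations was higher for 25 of the 40 members and lower for none. Of all 22095 genes and features 12.4% were called higher and 27.5% were called in either direction. The median difference was 1.34 over the members and -0.07 over all genes tested. For 18 of the 40 members every monocyte array lay below every macrophage array, which held for 6.31% of all genes. Taken singly, CCR2+ macrophages were higher than monocytes for 26 members (9.96% of all genes were called higher and 21.7% were called), MHC-IIHi macrophages for 19 (10.0% and 21.5%) and MHC-IIlo macrophages for 21 (10.1% and 21.3%), with 0 members lower in each. At an unadjusted p under 0.05, 1, 0 and 0 members were lower in these comparisons (18.5%, 16.7% and 16.9% of all genes) and 1 for the mean (20.1%). These comparisons share the same 4 monocyte arrays, so their member counts are not separate evidence. Normexp background correction gave fewer member calls: 17 members for the mean, of which 16 were higher and 1, Ncapg, was lower. Over all genes it called 6873, against 6068 without it. It also made the differences smaller: the median over the members became 0.493 for the mean (-0.237 over all genes), 0.873 for CCR2+, 0.296 for MHC-IIHi and 0.381 for MHC-IIlo macrophages, against 1.83, 0.886 and 1.24 in these populations without it. The fold that the difference stands for shrank by more than 1.5 times in 16 of the 25 members called for the mean.

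**Figure D2:**
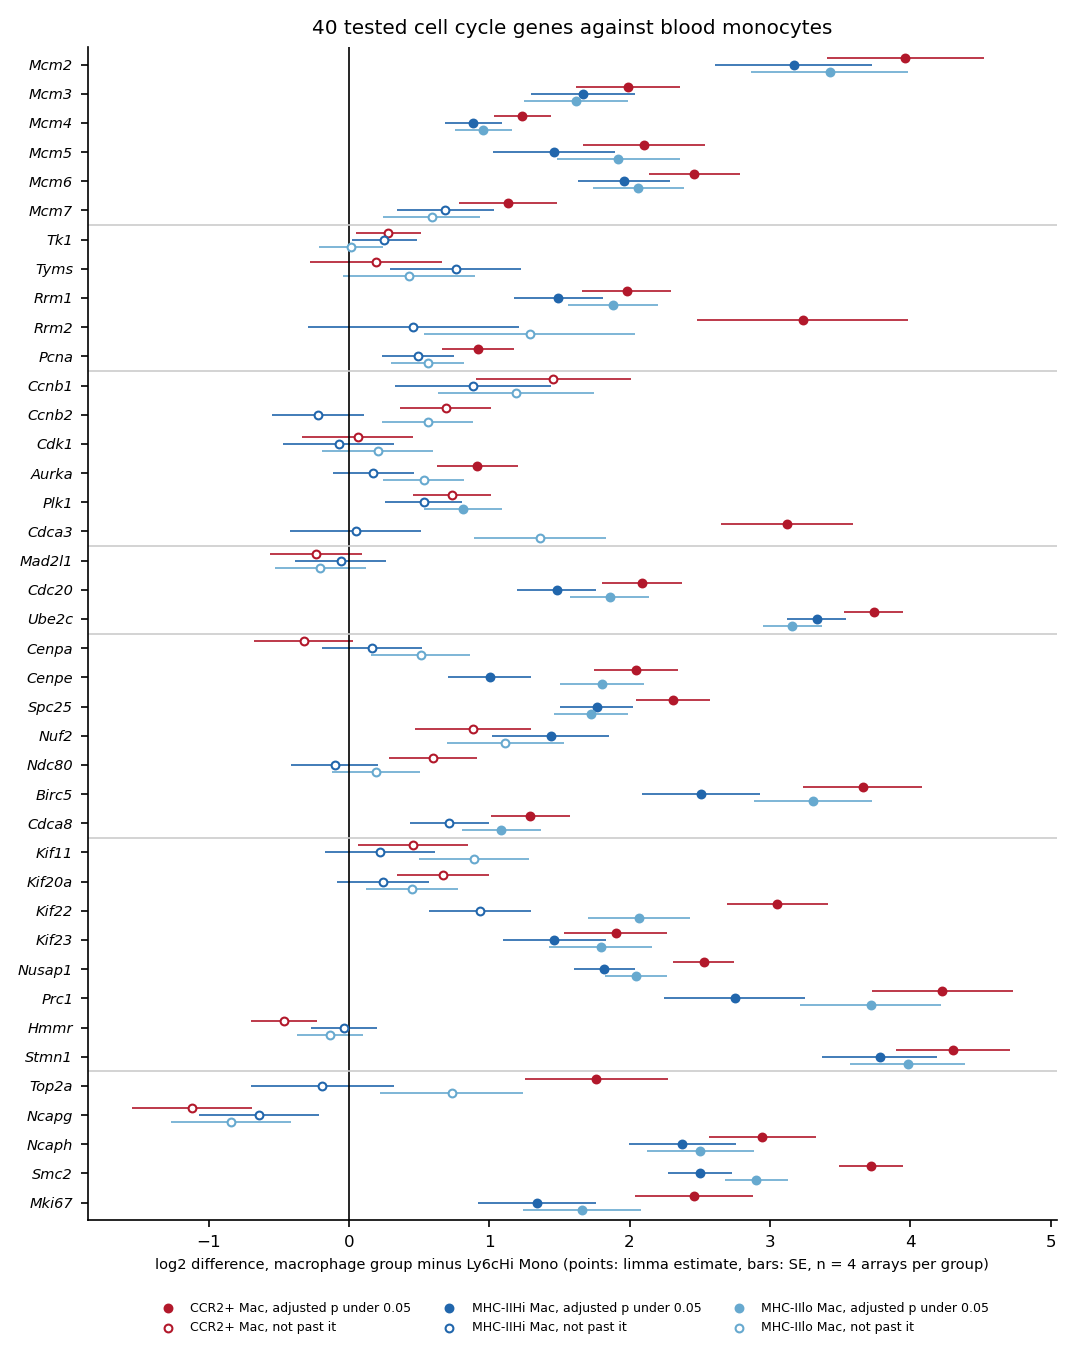
Fitted log2 difference from Ly6cHi Mono (± standard error) of the 40 tested members in each macrophage population; filled points have an adjusted p under 0.05 and open points do not. Stmn1, Prc1, Mcm2, Ube2c, Smc2 and Birc5 lie farthest to the right. Ncapg lies farthest to the left, and Ncapg, Mad2l1 and Hmmr lie to the left of 0 in every macrophage population. Where the monocyte probe was not well above background, the plotted value is the measured difference and not a bound.

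All 6 subunits of the MCM helicase, the motor that opens DNA ahead of the replication fork, were higher in macrophages. Mcm2 was at 0.43, -0.74, -0.06 and -0.23 in CCR2+, at -0.07, -1.20, -1.20 and -1.32 in MHC-IIHi and at 0.17, -1.60, -0.58 and -0.75 in MHC-IIlo macrophages. In monocytes it was at -2.07, -5.00, -4.67 and -4.73 and well above background on 1 array. The macrophage values overlapped each other, none reached down to the monocyte values, and the slide 1 monocyte array stood above the other 3. The macrophage mean was 3.52 ± 0.46 higher (adjusted p = 2.74e-05), a size that rests on monocyte arrays mostly not above background: it was 4.2 without monocyte replicate 1 and 1.57 under normexp correction. Mcm6 was at 2.59, 1.69, 1.97 and 1.75, at 2.29, 1.29, 1.32 and 1.10 and at 2.46, 0.99, 1.39 and 1.56 in the macrophages in the same order, and at -0.40, -0.23, -0.81 and -0.42 in monocytes. Again the monocytes lay apart below overlapping macrophages, and the difference was 2.16 ± 0.27 or 4.48-fold (adjusted p = 1.55e-05). Mcm3 was 1.76 ± 0.30 higher (adjusted p = 0.000372) and Mcm4 1.03 ± 0.17 higher (adjusted p = 0.000222). Mcm5, not well above background in any monocyte array, was at least 2.21-fold higher (adjusted p = 0.00104). Mcm7 was 0.80 ± 0.28 higher with an adjusted p of 0.0473. That call was lost when any 1 of 10 arrays was left out: all 4 monocyte arrays, CCR2+ replicates 1, 2 and 4, MHC-IIHi replicates 1 and 3 and MHC-IIlo replicate 4 (0.74 to 0.87, adjusted p 0.0521 to 0.124). The calls of Mcm5 and Mcm7 were also lost under normexp correction.

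Among the enzymes of nucleotide supply and the sliding clamp, 2 of 5 were higher in macrophages. Rrm1, the large subunit of ribonucleotide reductase, had levels of -1.81, -2.44, -2.02 and -2.71 in CCR2+, -2.39, -2.91, -2.82 and -2.79 in MHC-IIHi and -2.10, -2.36, -1.97 and -2.93 in MHC-IIlo macrophages. It was not well above background in monocytes, and the macrophages were at least 1.63-fold higher (adjusted p = 8.47e-05). Pcna, the clamp that holds the polymerase on DNA, was 0.66 ± 0.21 higher (adjusted p = 0.0286). Without monocyte replicate 2 the Pcna difference was 0.61 (adjusted p = 0.0864), and without monocyte replicate 4 it was 0.47 (adjusted p = 0.141). Both calls were lost under normexp correction. Rrm2, the small and cell-cycle-limited subunit of the reductase, was at -1.43, -0.87, -2.55 and -2.65 in CCR2+ macrophages and well above background on 4, 1, 2 and 0 arrays of CCR2+, MHC-IIHi, MHC-IIlo and monocytes. CCR2+ macrophages were at least 2.41-fold higher than monocytes (adjusted p = 0.00593); for the mean of the 3 populations the adjusted p was 0.0578, and 0.0181 with the slide as a block. The CCR2+ call of Rrm2 was lost under normexp correction (adjusted p = 0.102). The Rrm2 probe met the filter on dim signal only because of the CCR2+ arrays, and was not tested when 8 arrays were required. Thymidylate synthase, Tyms, differed by 0.46 ± 0.38 (adjusted p = 0.438) and the brightest probe of thymidine kinase, Tk1, by 0.18 ± 0.19 (adjusted p = 0.546).

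Of the cyclins, mitotic kinases and Cdca3, 2 of 6 tested members were higher in macrophages. Cdca3, which helps trigger mitotic entry, was called higher for the mean of the 3 populations (adjusted p = 0.00737). No size is given because 0 of 4 MHC-IIHi arrays and 0 of 4 monocyte arrays had Cdca3 well above background and the bound is under 1. The Cdca3 probe met the filter on dim signal only because of the CCR2+ arrays. Plk1, the Polo-like kinase, was at -0.69, -1.13, -1.68 and -0.92, at -1.34, -1.07, -1.58 and -1.24 and at -1.0, -0.90, -1.06 and -1.15 in the macrophages and at -1.07, -1.71, -2.50 and -2.08 in monocytes. The slide 1 monocyte array lay among the macrophages, and the difference of 0.69 ± 0.23 (adjusted p = 0.031) was not called without monocyte replicate 2 (0.74, adjusted p = 0.0524), 3 (0.47, adjusted p = 0.156) or 4 (0.61, adjusted p = 0.102). The calls of Cdca3 and Plk1 were lost under normexp correction, and median scaling also ended that of Plk1. Aurka, the kinase of the spindle poles, passed against monocytes in CCR2+ macrophages (0.92 ± 0.29, adjusted p = 0.0335), a call that 5 single arrays ended when left out (CCR2+ replicates 1 and 3 and monocyte replicates 1, 2 and 4; 0.72 to 0.96, adjusted p 0.0521 to 0.104). The Aurka call was also lost with median scaling, with quantile normalization and with only these populations fitted, and under normexp the difference turned to -0.0042. The B cyclins did not pass: Ccnb1 differed by 1.18 ± 0.45 (adjusted p = 0.0678) and Ccnb2 by 0.34 ± 0.27 (adjusted p = 0.398). Without monocyte replicate 1 the Ccnb1 difference was 1.63 (adjusted p = 0.0167), and without replicate 2 it was 1.57 (adjusted p = 0.0242). The monocyte levels of Ccnb1 were -0.21, -0.39, -2.42 and -3.23, so slides 1 and 2 stood above slides 3 and 4. With the slide as a block Ccnb1 was called for the mean (adjusted p = 0.0296) and in CCR2+ macrophages (adjusted p = 0.0323), Ccnb2 in CCR2+ (adjusted p = 0.00992) and MHC-IIlo (adjusted p = 0.0289) and Aurka for the mean (adjusted p = 0.0289). The brightest probe of Cdk1 differed by 0.07 ± 0.32 (adjusted p = 0.919).

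In the checkpoint and anaphase group both members that act at anaphase onset were higher in macrophages. The third tested member, Mad2l1, was not called at the probe used. Ube2c, which passes ubiquitin to the anaphase-promoting complex, was at 1.13, 0.85, 0.69 and 1.05 in CCR2+, at 0.55, 0.66, 0.38 and 0.51 in MHC-IIHi and at 0.74, 0.00, 0.18 and 0.49 in MHC-IIlo macrophages. In monocytes it was at -2.94, -3.02, -2.27 and -2.99. No macrophage array came near the monocytes, and the difference was 3.41 ± 0.17 or 10.6-fold (adjusted p = 8.17e-10). Cdc20, the activator of that complex, was at 1.14, 0.19, 0.39 and 0.83, at -0.21, -0.03, 0.19 and 0.18 and at 1.28, 0.06, 0.15 and 0.15 in the macrophages and at -1.09, -1.66, -1.33 and -1.71 in monocytes. Its groups did not overlap with the monocytes either, and the difference was 1.81 ± 0.23 or 3.5-fold (adjusted p = 2.25e-05). Mad2l1, the checkpoint protein that holds Cdc20 back, was bright in all populations at its brightest probe. That probe had means of 3.24, 3.42, 3.27 and 3.48 in CCR2+, MHC-IIHi, MHC-IIlo and monocytes, and differed by -0.17 ± 0.27 (adjusted p = 0.725). A dimmer Mad2l1 probe had means of -2.69, -3.94 and -3.27 in the macrophages and was called higher there, as described below. Another was well above background on 1 array.

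Of the kinetochore and passenger complex members, 5 of 7 were higher in macrophages. Birc5, also called survivin, is a passenger protein. It was at 2.85, 1.25, 1.38 and 1.54 in CCR2+, at 0.98, 0.44, 0.75 and 0.25 in MHC-IIHi, at 2.47, 1.03, 1.18 and 0.92 in MHC-IIlo macrophages and at -1.79, -1.04, -2.65 and -2.16 in monocytes. Slide 1 was high in all 3 macrophage populations, and monocytes lay below every macrophage array by 3.16 ± 0.35 or 8.94-fold for the means (adjusted p = 4.54e-06). Its partner Cdca8 (borealin) was 1.03 ± 0.23 higher (adjusted p = 0.00297). In the rod-shaped complex that grips microtubules at the kinetochore, Spc25 was 1.93 ± 0.21 higher (3.82-fold, adjusted p = 5e-06) with no overlap. Of the other rod proteins, Nuf2 differed by 1.15 ± 0.34 (adjusted p = 0.0189) and Ndc80 by 0.23 ± 0.26 (adjusted p = 0.58). The Nuf2 call was lost without monocyte replicate 1 (0.91, adjusted p = 0.0925) or 3 (0.86, adjusted p = 0.1) and under normexp correction. Cenpe, the kinetochore motor that carries chromosomes to the plate, was at -0.18, -1.39, -1.09 and -1.30 in CCR2+ macrophages and -2.86, -2.51, -3.53 and -3.23 in monocytes, a difference of 1.62 ± 0.24 for the 3 populations (adjusted p = 0.00011). Cenpa, the histone that marks the centromere, differed by 0.12 ± 0.29 (adjusted p = 0.825).

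Among spindle motors and microtubule proteins 5 of 8 were higher in macrophages, and this group held the widest difference of the list. Stmn1 (stathmin), which makes microtubules unstable, was at 3.32, 2.24, 2.56 and 2.60 in CCR2+, at 2.73, 2.71, 1.96 and 1.24 in MHC-IIHi, at 3.37, 1.91, 2.30 and 1.85 in MHC-IIlo macrophages and at -1.17, -1.13, -2.16 and -2.03 in monocytes. The populations of macrophages overlapped fully and stood 4.02 ± 0.33 above monocytes, or 16.2-fold (adjusted p = 2.06e-07). Prc1, which bundles microtubules between the separating chromosomes, was at 0.16, -1.39, -0.94 and -0.59 in CCR2+, at -0.89, -2.29, -2.54 and -2.94 in MHC-IIHi and at -0.27, -1.46, -1.79 and -1.28 in MHC-IIlo macrophages. It was not well above background in monocytes and was at least 3.46-fold higher in macrophages (adjusted p = 7.89e-06). Under normexp correction the log2 difference of Prc1 was 1.28, a smaller fold than that bound. Nusap1, a spindle protein that binds microtubules near chromosomes, was 2.13 ± 0.18 higher (4.38-fold, adjusted p = 2.41e-07), with 0.07, -0.07, -0.65 and -0.05 in CCR2+ macrophages and between -3.07 and -2.48 in monocytes. Kif23, a motor of the cleavage midzone, was 1.72 ± 0.30 higher (adjusted p = 0.000426). Kif22, a motor that pushes chromosome arms, was at least 1.08-fold higher (adjusted p = 8.68e-05), a call lost under normexp correction. The bipolar spindle motor Kif11 differed by 0.52 ± 0.32 (adjusted p = 0.264), the cytokinesis motor Kif20a by 0.45 ± 0.27 (adjusted p = 0.249) and the spindle protein Hmmr, which also occurs as a hyaluronan receptor, by -0.21 ± 0.19 (adjusted p = 0.49). Hmmr was bright in all 4 populations, with means between 3.36 and 3.82.

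Of the chromosome structure genes 3 of 5 were higher in macrophages. The condensin ATPase Smc2 was well above background on 0 of 4 monocyte arrays and at least 1.96-fold higher in macrophages (adjusted p = 5.88e-09), and the condensin subunit Ncaph was at least 1.36-fold higher (adjusted p = 1.13e-05, a call lost under normexp correction). Mki67, which coats mitotic chromosomes and is the usual stain for dividing cells, was at 1.97, 0.91, 0.90 and 1.34 in CCR2+, at 0.68, -0.18, 0.05 and 0.10 in MHC-IIHi and at 1.81, -0.13, -0.22 and 0.47 in MHC-IIlo macrophages. In monocytes it was at -0.59, -2.01, -1.04 and -1.06. Only the slide 1 monocyte array came close to the lowest macrophage arrays, without reaching them. Mki67 was 1.82 ± 0.34 higher in macrophages, or 3.53-fold (adjusted p = 0.000839). Top2a, the topoisomerase that untangles sister chromosomes, was well above background on 3 CCR2+ arrays, 1 MHC-IIlo array and none of the others. It was called higher in CCR2+ macrophages than in monocytes (adjusted p = 0.0214), with no size given because the bound is under 1. Top2a met the filter on dim signal only through those CCR2+ and MHC-IIlo arrays, and was not tested when 8 arrays were required. The Top2a call was lost without CCR2+ replicate 1 (adjusted p = 0.0588) or 3 (adjusted p = 0.0502) and under normexp correction (adjusted p = 0.785). Ncapg, a condensin subunit near background throughout, had the lowest difference, -0.87 ± 0.35 (adjusted p = 0.0817).

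Some calls against monocytes in single macrophage populations also rested on single arrays. In CCR2+ macrophages, Mcm7 was not called without CCR2+ replicate 1 or 4 or monocyte replicate 1, 3 or 4 (0.96 to 1.16, adjusted p 0.0545 to 0.0883), and Pcna not without CCR2+ replicate 1 (0.72, adjusted p = 0.0601) or monocyte replicate 4 (0.73, adjusted p = 0.0584). In MHC-IIHi macrophages Mki67 (1.34 ± 0.42, adjusted p = 0.0327) was not called without MHC-IIHi replicate 1, 3 or 4 or monocyte replicate 2, 3 or 4, Cenpe (1.00 ± 0.30, adjusted p = 0.0242) not without MHC-IIHi replicate 2 or 4 or monocyte replicate 3 or 4, Nuf2 (1.44 ± 0.42, adjusted p = 0.0209) not without MHC-IIHi replicate 2 or 4 or monocyte replicate 1 or 3, and Mcm5 (at least 1.71-fold, adjusted p = 0.0247) not without MHC-IIHi replicate 1 or 3 or monocyte replicate 1. The adjusted p without these arrays was 0.0551 to 0.106 for Mki67, 0.0621 to 0.0829 for Cenpe and 0.0613 to 0.0756 for Nuf2, and 0.0621, 0.0725 and 0.0726 for Mcm5. In MHC-IIlo macrophages Plk1 (0.81 ± 0.28, adjusted p = 0.0471) was not called without any MHC-IIlo array or monocyte replicate 2, 3 or 4 (0.59 to 0.86, adjusted p 0.0659 to 0.155). Normexp correction ended the calls of Ncaph, Rrm1 and Mcm5 in each of the 3 populations, those of Prc1, Cenpe, Kif23 and Nuf2 in MHC-IIHi, those of Kif22 and Plk1 in MHC-IIlo and that of Smc2 in MHC-IIHi and MHC-IIlo. With the slide as a block Plk1 (adjusted p = 0.0175), Nuf2 (adjusted p = 0.0256) and Ndc80 (adjusted p = 0.0291) were also called in CCR2+ macrophages, Kif22 (adjusted p = 0.0104) in MHC-IIHi, and Pcna (adjusted p = 0.0359), Cdca3 (adjusted p = 0.0048) and Nuf2 (adjusted p = 0.00765) in MHC-IIlo.

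Markers of other heart cells moved with the same comparison. For the macrophage mean against monocytes, 12.4% of all genes were called higher and 15.0% lower. Of the cardiomyocyte markers 7 of 8 tested were higher in macrophages than in monocytes, and their summed signal, in units of each array's 75th percentile, was 11.7 to 22.1 on macrophage arrays and 2.00 to 2.31 on monocyte arrays; Ryr2 was not well above background in any population. All 4 tested fibroblast markers were higher (summed signal 3.66 to 10.3 against 1.12 to 1.37, with Pdgfra not well above background anywhere), and 3 of 6 endothelial markers were (3.98 to 7.21 against 2.24 to 3.45, with Cdh5 not well above background anywhere). Of the erythroid markers 4 of 5 were lower (0.643 to 2.11 against 12.4 to 53.8). Their part in the difference of the cell cycle genes was not tested. Summed neutrophil markers were 0.441 to 1.8 on macrophage arrays and 4.41 to 5.73 on monocyte arrays, with 1 of 6 tested higher and 2 lower. Summed platelet markers were 13.8 to 54.9 against 2.58 to 5.36, with 1 of 5 higher and 2 lower.

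Between macrophage populations none of the tested cardiomyocyte, fibroblast, endothelial or erythroid markers was called, but single markers of other cells were. Of all genes 1.25% were called in CCR2+ against MHC-IIHi, 2.77% in CCR2+ against MHC-IIlo and 0.0679% in MHC-IIHi against MHC-IIlo macrophages. Of 6 dendritic cell markers, Cd209a was higher in CCR2+ than in MHC-IIHi macrophages (2.75 ± 0.62, adjusted p = 0.0413, well above background on 4 and 1 arrays), and Cd209a (2.53 ± 0.62, adjusted p = 0.0384) and Batf3 (1.03 ± 0.24, adjusted p = 0.0273) were higher than in MHC-IIlo. The summed dendritic signal overlapped, at 32.5 to 42.1 in CCR2+, 31.8 to 43.6 in MHC-IIHi and 35.9 to 42.5 in MHC-IIlo. The neutrophil marker Mmp9 was not well above background in CCR2+ macrophages and at least 4.14-fold lower than in MHC-IIHi (adjusted p = 0.000991) and 3.64-fold lower than in MHC-IIlo (adjusted p = 0.000526). Cd4 was lower than in MHC-IIHi (-1.39 ± 0.28, adjusted p = 0.0218), and the platelet marker Pf4 lower than in MHC-IIlo (-1.65 ± 0.33, adjusted p = 0.0124). The part of these markers in the cell cycle differences between macrophages was not tested.

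Between macrophage populations the design asks whether the cells that carry CCR2 differ from the resident populations that lack it. In CCR2+ against MHC-IIHi macrophages 3 members were called, all higher in CCR2+: Cdca3, Kif22 and Smc2. Cdca3 met the filter on dim signal only because of the CCR2+ arrays. Of all genes 1.25% were called and 0.638% were called higher. The difference was positive for 34 of the 40 members, with a median of 0.53 against -0.02 over all genes tested, and 14 members were higher and 0 lower at an unadjusted p under 0.05, where 4.28% of all genes were higher. With the slide as a block 7 members were called, the added ones being Rrm2 (adjusted p = 0.0333), Ccnb2 (adjusted p = 0.0189), Nusap1 (adjusted p = 0.0291) and Mki67 (adjusted p = 0.0246). The block also raised the calls over all 22095 genes, from 276 to 556. Under normexp correction none of the 3 was called.

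Cdca3 was at -1.30, -2.43, -2.40 and -2.15 in CCR2+, at -3.97, -4.99, -5.52 and -6.09 in MHC-IIHi and at -2.55, -3.95, -4.43 and -4.40 in MHC-IIlo macrophages. CCR2+ values lay above every array of the other populations, and the probe was well above background on 4 CCR2+ arrays, 1 MHC-IIlo array and no MHC-IIHi or monocyte array. CCR2+ macrophages were at least 3.06-fold above MHC-IIHi (adjusted p = 0.00305) and at least 2.1-fold above monocytes (adjusted p = 0.000194), and higher than MHC-IIHi on 4 of 4 slides. The Cdca3 probe met the filter on dim signal only because of the CCR2+ arrays, and was not tested when 8 arrays were required. Under normexp correction the log2 difference of Cdca3 from MHC-IIHi was 1.42 (limma, adjusted p = 0.0504), below the bound. Kif22 was at -1.69, -1.89, -2.23 and -2.14 in CCR2+, at -3.52, -4.14, -3.81 and -4.96 in MHC-IIHi and at -1.89, -3.01, -3.60 and -3.42 in MHC-IIlo macrophages. CCR2+ did not overlap with MHC-IIHi, and slide 1 of MHC-IIlo lay among the CCR2+ values. The difference from MHC-IIHi was 2.12 ± 0.36 (adjusted p = 0.00743), with 1.58 to 2.82 on single slides. Its size rests on MHC-IIHi arrays of which 1 of 4 was well above background, and it was 1.17 under normexp correction (adjusted p = 0.0973). Smc2 was at -1.46, -1.87, -1.11 and -1.53 in CCR2+, at -2.28, -2.69, -2.76 and -3.11 in MHC-IIHi and at -1.91, -2.49, -2.22 and -2.61 in MHC-IIlo macrophages, well above background on all 12 arrays. The CCR2+ values did not overlap with either of the others, and the difference from MHC-IIHi was 1.22 ± 0.23 or 2.33-fold (adjusted p = 0.0129). Scaling to the median in place of the 75th percentile ended the Smc2 call (adjusted p = 0.0788), and so did fitting only the populations compared (adjusted p = 0.0689).

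**Figure D3:**
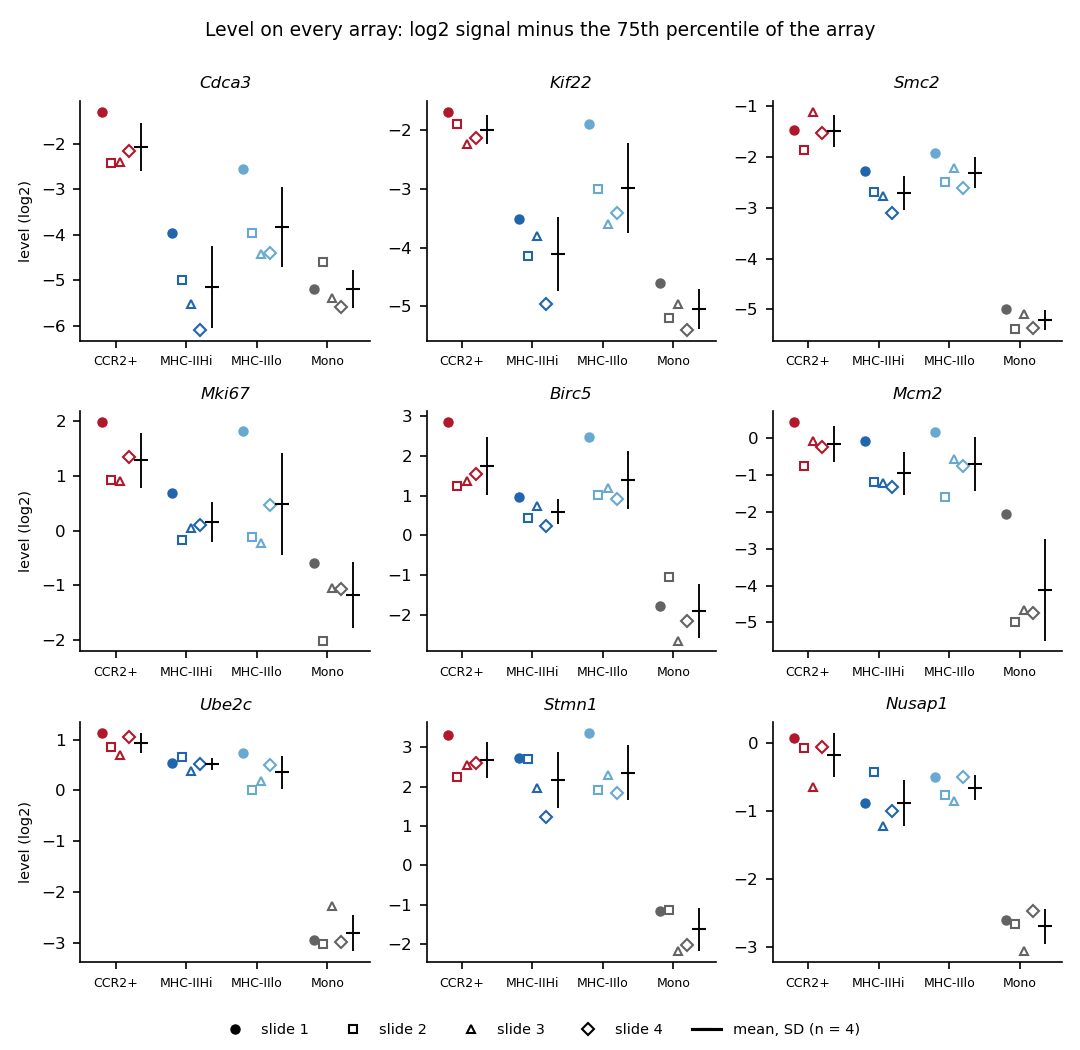
Level of 9 members on each array (points, with symbols for the slide; slide 1 is the filled circle) and the mean ± SD of each population (n = 4). Cdca3, Kif22 and Smc2 are highest in CCR2+ Mac; Birc5 and Mki67 on slide 1 lie above the other slides in CCR2+ Mac and MHC-IIlo Mac; Ube2c, Stmn1 and Nusap1 separate every macrophage array from every monocyte array.

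Several other members did not reach the threshold in that comparison in the main fit, which has no slide block. Rrm2 differed by 2.77 ± 0.75 (adjusted p = 0.112), Cenpe by 1.04 ± 0.30 (adjusted p = 0.137) and Nusap1 by 0.71 ± 0.22 (adjusted p = 0.185), and Top2a, at least 1.38-fold, had an adjusted p of 0.0912. Each had its sign on 4 of 4 slides. Mki67 differed by 1.12 ± 0.42 (adjusted p = 0.325) and Birc5 by 1.15 ± 0.42 (adjusted p = 0.303). With the slide as a block Rrm2, Nusap1 and Mki67 were called, as given above. Cenpe (adjusted p = 0.0979), Top2a (adjusted p = 0.0607) and Birc5 (adjusted p = 0.1045) were not called by limma with that block. All 6 MCM genes had positive differences, from 0.32 to 0.80, and none was called.

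In CCR2+ against MHC-IIlo macrophages 0 members were called, while 2.77% of all genes were. At an unadjusted p under 0.05, 7 members were higher (5.63% of all genes) and 1 was lower (6.01%), Cenpa (-0.83 ± 0.35, adjusted p = 0.344). The same 3 genes as against MHC-IIHi were measured at 1.76 ± 0.47 for Cdca3 (adjusted p = 0.0626), 0.82 ± 0.23 for Smc2 (adjusted p = 0.0757) and 0.99 ± 0.36 for Kif22 (adjusted p = 0.236). With the slide as a block all 3 were called higher in CCR2+ macrophages, at adjusted p = 0.00579, 0.0091 and 0.0337, and the same 3 were called when MHC-IIlo replicate 1 was left out. Those 2 fits called 1260 and 660 of all genes, against 612 in the main fit. The median difference of the members was 0.30.

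In MHC-IIHi against MHC-IIlo macrophages 0 members were called, and 0.0679% of all genes were. The difference was negative for 30 of the 40 members with a median of -0.29. At an unadjusted p under 0.05, 4 members were lower in MHC-IIHi (1.8% of all genes) and 0 higher: Cdca3 (-1.31 ± 0.47, adjusted p = 0.926), Kif22 (-1.13 ± 0.36, adjusted p = 0.72), Cenpe (-0.80 ± 0.30, adjusted p = 0.982) and Ccnb2 (-0.78 ± 0.32, adjusted p = 1). Each of the 4 was lower on 4 of 4 slides. The sizes for Cdca3 and Kif22 rest on few measured arrays, since Cdca3 was well above background on 0 MHC-IIHi and 1 MHC-IIlo arrays and Kif22 on 1 and 3.

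The slides did not weigh equally. Of the 4 arrays of a population, slide 1 was the highest for 29 of the 40 members in CCR2+, 24 in MHC-IIHi and 26 in MHC-IIlo macrophages, and for 12 in monocytes. Slide 1 arrays had 54.6% to 61.7% of spots well above background, slide 2 60.1% to 69.3%, slide 3 52.8% to 62.4% and slide 4 58.2% to 68.2%; the part of the slide in these levels was not tested beyond the fits with the slide as a block. Without slide 1, an alternative chosen after seeing the data, the 7 comparisons called 4 members in CCR2+ against MHC-IIHi, 1 in CCR2+ against MHC-IIlo (Cdca3), 0 in MHC-IIHi against MHC-IIlo, 26, 18 and 20 in CCR2+, MHC-IIHi and MHC-IIlo against monocytes and 25 for the mean against monocytes. Over all genes these comparisons called 204, 524, 1, 4071, 4380, 4482 and 5811 in the same order. Levels of the members were correlated over the arrays: the median Pearson correlation of levels over 780 pairs of members was 0.526 across 16 arrays, and 0.25 after subtraction of population means, with 67.6% of pairs positive. The arrays of a pair share population, slide and scaling, so this is a description.

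Probes of the same gene did not always show the same pattern, and 3 members turned on which probe was read. Probes are 60 bases long, and the first 30 are printed for the Cdk1 probes to show what differs; capitals mark part of a 41-base stretch that the 2 dimmer probes share.
A_55_P2016647 (the brightest): atacactaaaaatttgggtagccaggaggt
A_55_P2016652: AACTTAATTAACATGTAAATATTATTCCAT
A_55_P2048588: ttcttaatttcctacgtatAACTTAATTAA

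The brightest Cdk1 probe had mean levels of -0.96, -1.10, -0.82 and -1.03 in CCR2+, MHC-IIHi, MHC-IIlo and monocytes, nearly level across populations. The second probe had means of -1.46, -2.94 and -1.98 in the macrophages, and the third had -1.68, -3.50 and -2.22. Neither was well above background on any monocyte array, and both were called higher in macrophages (adjusted p = 7.44e-10 and 1.77e-07 over 27643 probes, limma). Between CCR2+ and MHC-IIHi macrophages those probes differed by 1.48 ± 0.21 (adjusted p = 0.00153) and 1.82 ± 0.30 (adjusted p = 0.0051). They overlap and are not independent. For Tk1 the used probe differed by 0.18 ± 0.19, a dimmer one by 1.86 ± 0.49 (adjusted p = 0.00928) and another by -0.13 (adjusted p = 0.886). For Mad2l1 the used probe differed by -0.17 and a dimmer one, not well above background in monocytes, had means of -2.69, -3.94 and -3.27 in the macrophages and was called higher (adjusted p = 0.00119). These probes were tested on their own after their values were seen. With the mean of a gene's probes in place of the brightest, Cdk1, Tk1, Ccnb1 and Mad2l1 joined the members called against monocytes, 29 in all. The calls over all genes went from 6068 to 6258. Among probes that passed the filter on dim signal, the other members with several kept their direction in each, among them Birc5 (3.16, 2.59 and 3.59), Stmn1 (4.02 and 4.23), Ube2c (3.41 and 1.90) and Mki67 (1.82 and 1.24). A dim probe that did not pass differed by -0.38 for Kif23 (well above background on 1 array) and by -0.66 for Nuf2 (on 0 arrays).

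**Figure D4:**
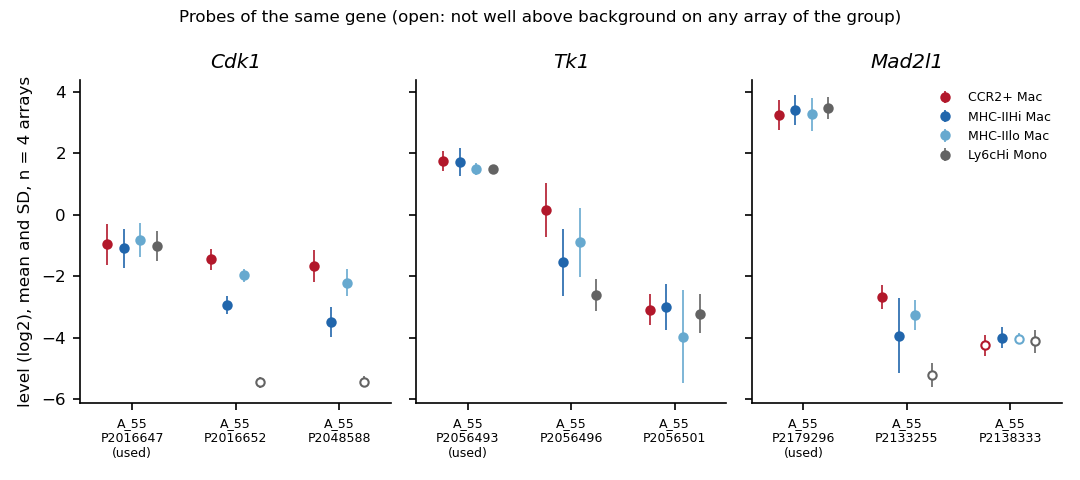
Level of the 3 probes each of Cdk1, Tk1 and Mad2l1 by population (mean ± SD, n = 4); open points mark probes not well above background on any array of that population. For Cdk1 the brightest probe is level across populations while the other probes fall from CCR2+ Mac to Ly6cHi Mono.

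The 6 members that were not tested were well above background on 1 or 2 of the 16 arrays. Ccna2 (cyclin A), Aurkb (the passenger complex kinase) and Bub1 (a checkpoint kinase) were each measured on 1 CCR2+ array. Bub1b (a checkpoint protein) and Cenpf (a kinetochore protein) were measured on 1 CCR2+ and 1 MHC-IIlo array, and Tpx2 (an activator of Aurora A) on 1 MHC-IIHi array. The levels of Ccna2 were -2.60, -4.66, -4.35 and -4.03 in CCR2+ macrophages and between -6.03 and -3.77 in the other macrophages. No monocyte array measured any of these 6. These members, like Tk1, Mad2l1, Cenpa, Hmmr, Ncapg, Kif11, Kif20a and Ndc80, are named so that every member is accounted for.

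Other genes of the same pathway, 121 in all and 97 of them tested, were read from lists by role. Against monocytes 34 of the 97 were higher in macrophages and 7 lower, where 12.4% of all genes were higher and 15.0% lower. Of these, 10 of 26 tested replication genes were higher and 1 was lower: Gins2, a helicase partner, by 2.59 ± 0.27 (adjusted p = 2.41e-06), the licensing inhibitor Gmnn by 1.68 ± 0.22 (adjusted p = 3.33e-05), and Gins3, also a helicase partner, at -0.59 ± 0.15 (adjusted p = 0.00671). Of 32 tested mitosis genes 11 were higher and 2 lower. Cep55, an abscission protein, was 2.39 ± 0.32 higher (adjusted p = 3.92e-05) and Fbxo5, an inhibitor of the anaphase-promoting complex, 1.57 ± 0.27 higher (adjusted p = 0.000409). The Cdk1-binding protein Cks2 was lower, at a difference of -1.50 ± 0.32 (adjusted p = 0.00242), and so was Racgap1, the partner of Kif23, at -0.40 ± 0.13 (adjusted p = 0.0294). The Racgap1 call was lost without monocyte replicate 1, 3 or 4 (adjusted p 0.0806 to 0.0994). Quantile normalization and normexp correction also ended the calls of Gins3 and Racgap1.

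Genes that govern entry into the cycle differed in both directions. Ccnd1, a D cyclin, was at 3.08, 2.87, 3.48 and 3.00 in CCR2+, at 3.39, 2.75, 2.93 and 2.50 in MHC-IIHi, at 3.45, 2.64, 2.66 and 2.64 in MHC-IIlo macrophages and at -2.73, -1.48, -0.80 and -1.84 in monocytes. The macrophage populations overlapped and stood 4.66 ± 0.28 above monocytes, or 25.3-fold (adjusted p = 5.55e-09). Ccnd2 was 4.41 ± 0.17 higher (adjusted p = 3.32e-11), and the third D cyclin, Ccnd3, was lower, at a difference of -1.93 ± 0.18 (adjusted p = 9.4e-07). Their kinase partner Cdk6 was not well above background on any array. Of the inhibitors and brakes 6 of 14 were higher and 2 lower. Cdkn1a, which inhibits cyclin-dependent kinases, was at 4.76, 4.52, 4.99 and 4.31 in CCR2+ macrophages and 1.53, 0.95, 1.69 and 1.15 in monocytes, a difference of 3.29 ± 0.19 or 9.77-fold over the 3 populations (adjusted p = 4.37e-09). Cdkn1c of the same family was 2.97 ± 0.19 higher (adjusted p = 9.26e-09). Cdkn2d was lower, at a difference of -1.67 ± 0.19 (adjusted p = 5.49e-06), and so was Btg1, an antiproliferative protein, at -1.19 ± 0.15 (adjusted p = 2.53e-05). Cdkn1b differed by -0.55 ± 0.20 (adjusted p = 0.0558), and was called lower with the slide as a block (adjusted p = 0.00117) and without CCR2+ replicate 1, MHC-IIHi replicate 1 or 3, MHC-IIlo replicate 1 or monocyte replicate 2 (-0.66 to -0.58, adjusted p 0.0293 to 0.0482).

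**Figure D5:**
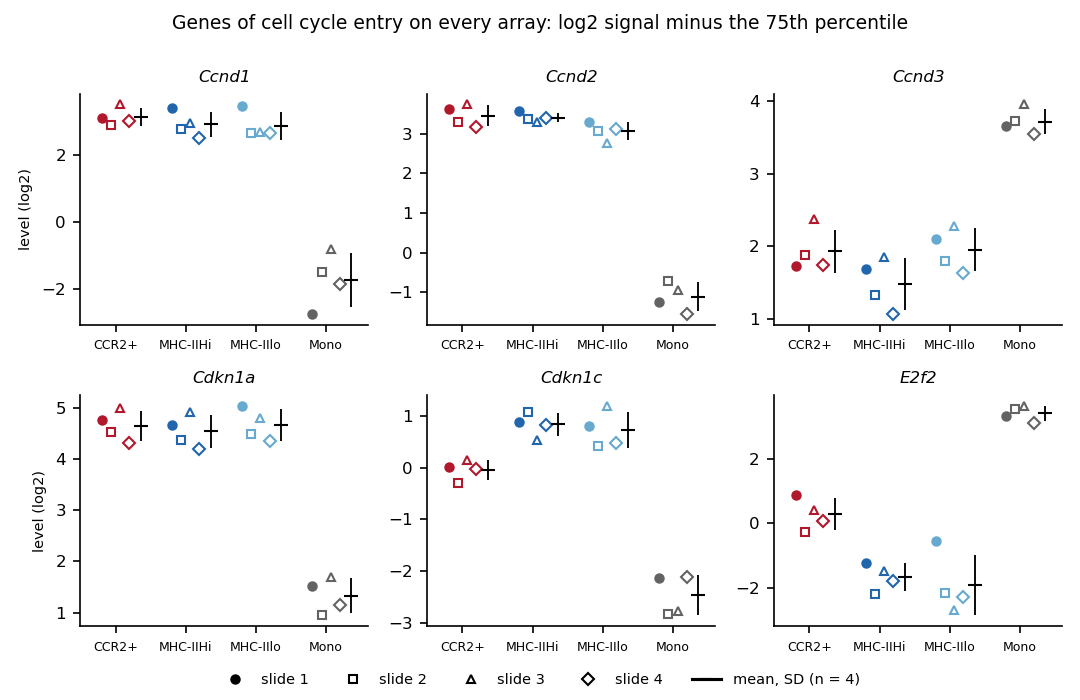
Level on each array of 3 D cyclins (Ccnd1, Ccnd2, Ccnd3), 2 kinase inhibitors (Cdkn1a, Cdkn1c) and E2f2 (points), with the mean ± SD of each population (n = 4). Ccnd1, Ccnd2, Cdkn1a and Cdkn1c are high in every macrophage array and low in every monocyte array, and Ccnd3 and E2f2 are the other way round.

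Of the cell cycle transcription factors 2 of 14 were higher in macrophages and 1 was lower, a share near that of all genes. E2f1 was 0.88 ± 0.20 higher (adjusted p = 0.00319) and Mybl2, which turns on late genes, 1.56 ± 0.22 higher (adjusted p = 4.88e-05). E2f2, another activating E2F, was at 0.88, -0.27, 0.42 and 0.07 in CCR2+, at -1.22, -2.19, -1.47 and -1.77 in MHC-IIHi, at -0.54, -2.15, -2.69 and -2.27 in MHC-IIlo macrophages and at 3.31, 3.55, 3.63 and 3.11 in monocytes. Every macrophage array lay below every monocyte array, and CCR2+ arrays lay between monocytes and the others. The macrophage minus monocyte difference was -4.50 ± 0.32, or 22.6-fold lower (adjusted p = 3.58e-08). Foxm1, the mitotic activator, differed by 0.49 ± 0.32 (adjusted p = 0.308). Among factors tied to macrophage self-renewal Myc was 3.63 ± 0.37 higher (adjusted p = 2.04e-06), Klf4 0.85 ± 0.19 (adjusted p = 0.00293) and Maf 3.66 ± 0.20 (adjusted p = 1.82e-09). Maf is known for holding macrophages back from division.

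Between CCR2+ and MHC-IIHi macrophages 3 of the 97 pathway genes were called higher and 1 lower (0.638% and 0.611% of all genes). CCR2+ macrophages were above MHC-IIHi for E2f2 (1.94 ± 0.39, adjusted p = 0.0218), the repressive E2f8 (2.19 ± 0.51, adjusted p = 0.0499) and Cks2 (at least 1.83-fold, adjusted p = 0.023), and below it for the inhibitor Cdkn2a (-2.04, adjusted p = 0.039). Of these calls none held when each array was left out in turn. E2f2 was lost without CCR2+ replicate 1 or 3 or MHC-IIHi replicate 2, 3 or 4 (adjusted p 0.0519 to 0.0794), and Cks2 without CCR2+ replicate 1, 2 or 4 or MHC-IIHi replicate 1 or 3 (0.0602 to 0.0927). E2f8 was lost without any array but MHC-IIHi replicate 2 (0.0829 to 0.183), and Cdkn2a without any array but MHC-IIHi replicate 1 (0.0629 to 0.142). Against MHC-IIlo 4 of the 97 were higher and 4 lower (1.49% and 1.28% of all genes). CCR2+ macrophages were higher for Mybl2 (1.52, adjusted p = 0.00394), E2f2 (2.19, adjusted p = 0.0047), E2f8 (2.11, adjusted p = 0.0355, named after its values were seen) and Btg1 (0.90, adjusted p = 0.0152), and lower for Cdkn2a (-2.63, adjusted p = 0.00371), Cdkn2b (-2.17, adjusted p = 0.0197), the phosphatase Cdc25b (-1.04, adjusted p = 0.0101) and Maf (-0.99, adjusted p = 0.0394). The Btg1 call was lost without CCR2+ replicate 1 (0.80, adjusted p = 0.056), Cdkn2b without CCR2+ replicate 1, 2 or 3 or MHC-IIlo replicate 2 (adjusted p 0.0521 to 0.0733), Maf without any array but CCR2+ replicate 1 (0.0515 to 0.128) and E2f8 without any array but MHC-IIlo replicate 1 (0.0589 to 0.126). With the mean of its probes Mybl2 differed by 0.65 (adjusted p = 0.209). Without slide 1 Cdc25b (-0.934, adjusted p = 0.0915) and Cdkn2b (-1.535, adjusted p = 0.135) were not called by limma. Normexp correction ended the calls of Cdc25b (-0.64, adjusted p = 0.171), Cdkn2b and Maf, median scaling those of Cdc25b, Btg1, Maf and E2f8, and fitting only these populations those of E2f2, E2f8, Btg1, Cdkn2b and Maf. The Cdkn2a call held under every alternative run. Between MHC-IIHi and MHC-IIlo macrophages 0 of the tested pathway genes were called by limma, with 2 higher and 5 lower in MHC-IIHi at an unadjusted p under 0.05, where 2.1% and 1.8% of all genes were.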

How the data were processed

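RNA from 16 sorted samples, 4 per population, was hybridised to Agilent mouse arrays in 1 colour. Per the file headers, the authors scanned the Cy5 channel and processed it with Feature Extraction 11.5.1.1; the deposited processed signal is a linear intensity from which background was subtracted, not scaled between arrays, and no spot was saturated. The deposited value table holds log2 signal; Partek is named in the submitters' processing notes without a step. Of its 16 columns 0 correlated best with the array of their own label and 12 matched an array of another population, so the table was not used. The number of arrays limits the precision.

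Here, control spots were left out, replicate spots averaged and log2 of the processed signal was scaled to each array's 75th percentile. Probes well above background on at least 4 of 16 arrays were kept (27643), and the brightest kept probe stood for a gene. limma 3.58.1 in R 4.3.3 (lmFit, eBayes) was fitted to all 16 arrays with 1 mean per population, tested on simulated data, and p-values were adjusted by Benjamini-Hochberg. Arrays of 1 replicate number lay on 1 slide with 1 scan; position on the slide and population cannot be told apart. In 24 of 24 pairs of arrays from different populations with the same number, deviations from population means correlated above 0.1 (median 0.34, against -0.189 for other numbers), so the numbers pair the arrays. The main fit did not use this pairing, and only the fits with the slide as a block did. Alternatives were another scaling, background correction, filter, probe rule, slide block, array weights, fewer populations and each array left out.

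The members and lists were chosen with earlier results of these data known. Named members are those called in any of 7 comparisons, the widest of each role and a preset list; of the pathway lists, the 2 smallest adjusted p per direction and a preset list. Ly6c2 is not analysed here, and some other genes of the fixed lists are not reported here.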

Additional observations from a re-analysis of the deposited data

Results flagged for a closer look

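In 227 sets of 4 arrays (1 gene in 1 population), the array farthest from its neighbours was set against Dixon's 95% critical value; 12 sets passed it (5.29%), where chance gives about 1 in 20. In 11 of the 12 it was the slide 1 array that stood above the others. For the members these were Birc5 at 2.47 and Cdc20 at 1.28 in MHC-IIlo macrophages, Ccnb1 at -0.345 and Mcm2 at -0.0732 in MHC-IIHi macrophages, Mcm2 at -2.07 in monocytes, Mcm3 at 2.1 in CCR2+ and 1.68 in MHC-IIlo macrophages, and Pcna at 0.826 in CCR2+ macrophages. Of the pathway genes, slide 1 stood apart for Ccnd1 at 3.45 and Maf at 3.95 in MHC-IIlo macrophages and for E2f8 at -1.19 in CCR2+ macrophages. The remaining set was Ube2c in monocytes, where slide 3 was at -2.27. No difference between the populations' contrasts was tested with an interaction term.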

How the results depend on the processing

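Member counts in MHC-IIHi against MHC-IIlo, in CCR2+ and MHC-IIlo against monocytes and for the mean against monocytes stayed within 1.5 times the reported count under every alternative run. These counts take both directions together, and under normexp each count against monocytes includes Ncapg as lower. Normexp kept 20 of the 26 calls in CCR2+, 15 of the 21 in MHC-IIlo and 16 of the 25 for the mean. Counted as higher calls only, the mean against monocytes thus lay outside 1.5 times under normexp. In CCR2+ against MHC-IIHi macrophages the count of 3 became 0 with normexp background correction, 7 with the slide as a replicate block and 9 with array weights. Calls over all 22095 genes went from 276 to 245, 556 and 947 in these fits. In CCR2+ against MHC-IIlo the count of 0 became 3 with the replicate block, 6 with array weights (5 higher and 1, Cenpa, lower), 3 without MHC-IIlo replicate 1 and 1 without slide 1. Here the calls over all genes went from 612 to 1260, 1215, 660 and 524. In MHC-IIHi against monocytes the count of 19 became 12 with normexp. With each array left out in turn, the counts were 3 to 4 in CCR2+ against MHC-IIHi, 0 to 3 against MHC-IIlo, 0 between MHC-IIHi and MHC-IIlo, 22 to 26, 16 to 19 and 20 to 22 in CCR2+, MHC-IIHi and MHC-IIlo against monocytes and 22 to 26 for the mean. The replicate block gave 31, 20 and 25 against monocytes and 28 for the mean. It called 7471, 7025, 7121 and 8478 of all genes there, against 4800, 4743, 4715 and 6068 without the block. Normexp moved the median of all genes by -0.16 to -0.17 against monocytes and that of the members from 1.34 to 0.493 for the mean, and its counts there were 21 (20 higher), 12 (11 higher) and 16 (15 higher), with Ncapg lower in each. Normexp called 5243, 4362 and 4860 of all genes in these 3 comparisons. Differences changed sign under normexp for Aurka in CCR2+ against monocytes (-0.0042), Rrm1 in MHC-IIHi against monocytes (-0.044), and Top2a (-0.24), Tyms (-0.29), Ccnb2 (-0.16) and Cdk1 (-0.090) for the mean. Cdk1 also changed sign with median scaling (-0.012), and with arrays left out, where it ranged from -0.16 (without monocyte replicate 3) to 0.20 (without monocyte replicate 2) and was -0.0027 without CCR2+ replicate 4. Median scaling ended the calls of Mcm7, Pcna and Plk1 for the mean, and keeping probes measured on at least 8 arrays removed Cdca3. That filter also removed Cdca3 in CCR2+ against MHC-IIHi macrophages, and Rrm2, Cdca3 and Top2a in CCR2+ against monocytes. The cause of these changes was not tested. A scan block was not run, since scan and slide coincide. Probes near background in monocytes limit the folds to bounds, which apply to the signal as deposited and not under normexp.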
